A study of Mus musculus with 16 samples.

Results

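The C-type lectin genes described here are Clec4e, Clec4d, Clec4n, Clec7a, Clec5a, Clec12a and Olr1, 7 of the 19938 genes that a probe set of the array names alone. They were chosen by symbol, as receptors of myeloid cells related to Clec4e and Clec7a, and each had 1 probe set. Expression was measured on whole-transcript arrays in CD11b+ dendritic cells, sorted from mouse lung as myeloid cells carrying CD11c, CD11b and MHC class II. The 8 tumoral arrays carry RNA of such cells from Lewis lung carcinoma growing in the lung, and the 8 peritumoral arrays RNA of such cells from the lung tissue beside it. All arrays come from C57BL/6 mice that received the carcinoma cells, a tumour line of the same strain, into the airways, so no array is from a tumour-free lung. The labels used here give no age, time after inoculation, animal or pool, so every p-value reflects only how far these arrays scatter, part of which may be technical. Values are on the deposited log scale, read as log2 because they run from 2.31 to 14.33. Differences are tumoral minus peritumoral.

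C-type lectin receptors are surface proteins by which myeloid cells bind sugars and lipids of microbes and debris of dying cells. Most of the receptors named here signal through a tyrosine-based activation motif, carried by a partner protein (Fc receptor gamma chain or DAP12) or by the receptor itself, which recruits the kinase Syk and then the CARD9 complex that drives inflammatory gene expression. Clec12a encodes a receptor with an inhibitory motif and Olr1 a scavenger receptor, so the word activating does not describe every gene of the group. In bulk RNA, fewer cells expressing a gene and less RNA per cell cannot be told apart.

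All 7 genes lie on mouse chromosome 6. Clec4n, Clec4d and Clec4e follow each other in the RefSeq annotation of GRCm38.p6, as do Clec7a and Olr1. A promoter window was given by RefSeq for 6 of the 7 genes, all but Clec4n. The 250 bases before the start were searched on both strands for 4 motifs of transcription factors active in myeloid cells. The letters GAGGAA, the core of sites for the myeloid factor PU.1, were found in all 6 windows, against 23.3% of 32851 windows of all genes. The letters TTGCNNAA, of the kind bound by C/EBP factors, were found for Clec4e and Clec12a, against 9.56% of all windows. The letters TGANTCA of the AP-1 kind were found for Clec12a and Olr1 (6.75% of all windows), and a motif of the NF-kB kind for 0 of the 6 (1.41%). These counts describe the letters in the windows and not binding. The windows of the neighbours Clec4e and Clec4d and of Clec5a are shown because these genes, with Clec4n, varied in step with where an array stood in the deposited order, as described further on. Capitals mark GAGGAA, TTGCNNAA or their reverse complements. The Clec4e window (GRCm38.p6, chr6:123289872-123290121, minus strand) holds 2 GAGGAA matches and 1 TTGCNNAA match, which do not overlap. The Clec4d window (chr6:123261857-123262106, plus strand) holds 1 GAGGAA match, and the Clec5a window (chr6:40585806-40586055, minus strand) holds 2.
Clec4e: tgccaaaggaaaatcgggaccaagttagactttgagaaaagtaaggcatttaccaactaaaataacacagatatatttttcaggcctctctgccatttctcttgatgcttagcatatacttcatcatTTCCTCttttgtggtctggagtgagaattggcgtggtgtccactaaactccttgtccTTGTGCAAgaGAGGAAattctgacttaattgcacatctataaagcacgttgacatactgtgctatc
Clec4d: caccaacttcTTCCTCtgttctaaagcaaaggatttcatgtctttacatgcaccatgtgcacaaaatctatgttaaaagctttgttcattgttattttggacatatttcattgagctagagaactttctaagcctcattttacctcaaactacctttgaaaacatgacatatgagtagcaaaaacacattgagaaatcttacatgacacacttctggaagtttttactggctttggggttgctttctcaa
Clec5a: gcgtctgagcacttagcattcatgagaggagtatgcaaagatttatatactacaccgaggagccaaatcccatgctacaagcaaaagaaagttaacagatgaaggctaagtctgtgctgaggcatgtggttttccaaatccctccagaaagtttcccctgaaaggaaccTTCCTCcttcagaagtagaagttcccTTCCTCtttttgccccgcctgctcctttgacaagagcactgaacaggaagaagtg

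Before the results, 1 array and the order of the arrays need to be described. Peritumoral 4 stood apart by transcripts of other cell types. Its mean over 8 endothelial markers, each centred on its own mean over all arrays, was 3.58, against -0.50 to 1.35 in every other array. Its mean over 6 lymphocyte markers was 2.46, against -0.71 to 0.33. The endothelial mean of 1.35 was that of peritumoral 7, and the next highest was 0.16 in peritumoral 5. The neutrophil marker mean was 1.11 in peritumoral 4 and 1.02 in peritumoral 5. For the sort, the CD11c gene Itgax ran from 11.51 to 11.72 in tumoral and from 11.07 to 11.79 in peritumoral arrays, with its lowest value in peritumoral 4. The CD11b gene Itgam averaged 11.31 ± 0.25 in tumoral and 11.22 ± 0.50 in peritumoral arrays (SD, n = 8 each) and was lowest, at 10.18, in peritumoral 4. H2-Ab1, a gene of MHC class II, ran from 13.10 to 13.38 in tumoral and from 13.06 to 13.38 in peritumoral arrays. The table holds peritumoral 1 to 8 and then tumoral 1 to 8, and several of the lectin genes repeated a pattern every 3 arrays along it, across both labels.

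None of the 7 lectin genes passed the test between tumoral and peritumoral arrays. limma called 0 of 19938 genes at a Benjamini-Hochberg adjusted p under 0.05 (0% of genes), and 2292 genes (11.5%) had an unadjusted p under 0.05. Clec12a, the inhibitory receptor gene, was the member with the smallest unadjusted p, and the only 1 of the 7 under 0.05. On average 5 of the 7 genes were higher in tumoral arrays and 2 were lower, with a median difference of 0.30. Over all genes 41.7% were higher in tumoral arrays and the median difference was -0.02. The tumoral and peritumoral values overlapped for all 7 genes. They did not overlap for 0.0853% of all genes.

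**Figure D1:**
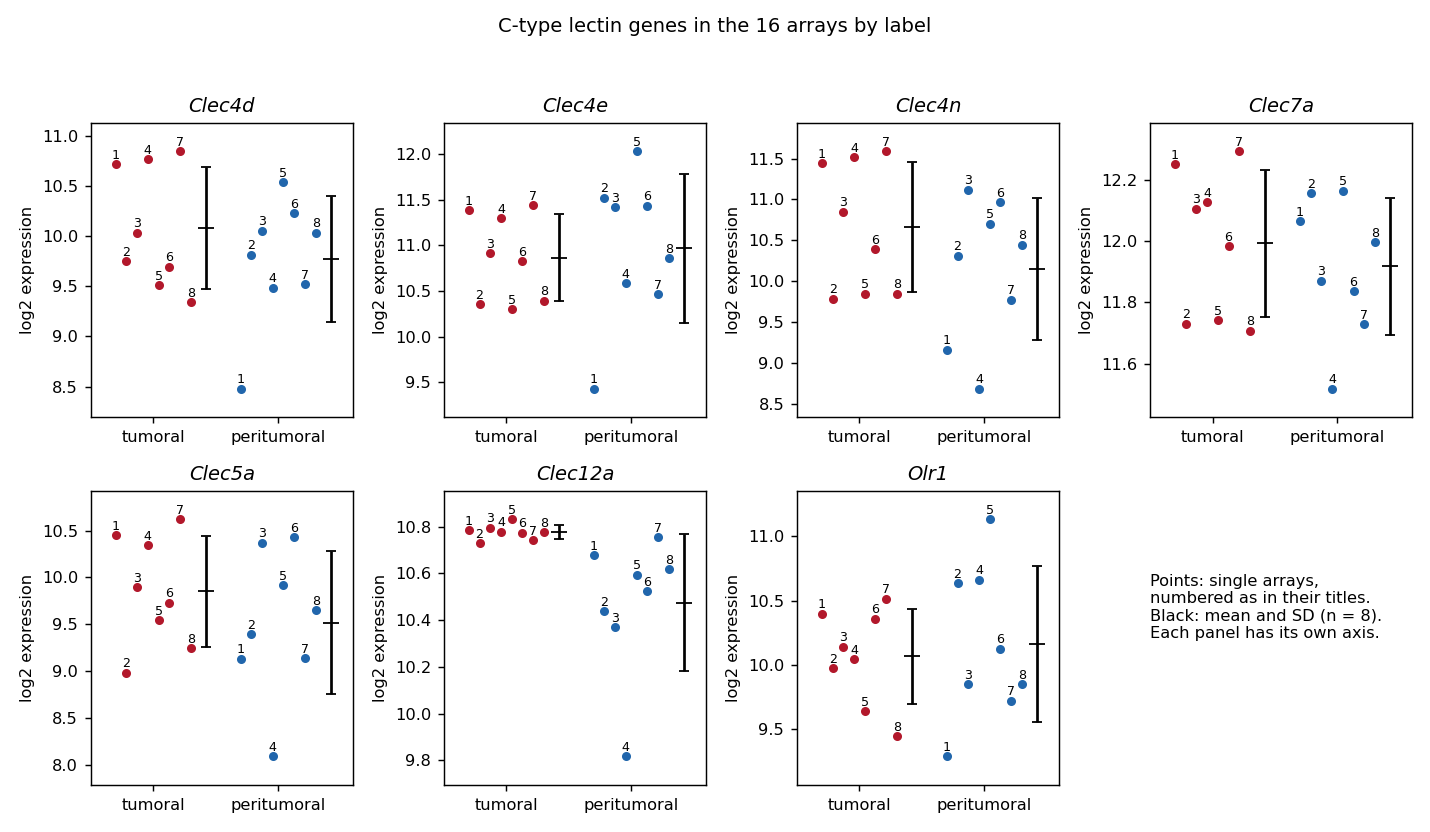
Log2 expression of the 7 C-type lectin genes, with tumoral arrays on the left and peritumoral arrays on the right of each panel. Points are single arrays with the number of their title, and the black bars give the mean and SD (n = 8). Clec12a lies within 10.73 to 10.83 in tumoral arrays, while its peritumoral values reach down to 9.82, and the other genes overlap broadly.

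Clec12a encodes MICL, a receptor for uric acid crystals that carries an inhibitory motif and dampens Syk signalling. Its lowest, median and highest values were 10.73, 10.78 and 10.83 in tumoral arrays, against 9.82, 10.56 and 10.75 in peritumoral arrays. Of the 8 tumoral arrays 6 lay above every peritumoral array, and 7 of the 8 peritumoral arrays lay below every tumoral array. Peritumoral 7, at 10.75, was the array that made the labels overlap. The means were 10.78 ± 0.03 in tumoral and 10.47 ± 0.29 in peritumoral arrays (SD, n = 8 each). The difference of 0.30 (95% interval 0.09 to 0.51, 1.23-fold) did not pass over all genes (limma, adjusted p = 0.292). An exact permutation of the labels gave p = 0.000466, with an adjusted p of 0.182 over all genes. This permutation p was smaller than the unadjusted p of limma. The permutation takes the arrays of both labels as exchangeable, and their SDs differed (0.03 and 0.29). Its p therefore cannot be read as a measure of the difference in means alone. Without peritumoral 4, which had the lowest value, the difference was 0.21, with an adjusted p of 0.285 in limma. Without peritumoral 7 the adjusted p was 0.125.

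The Clec12a values of tumoral arrays were also close together. Their SD of 0.03 was matched or undercut by 0.0602% of all genes, and the ratio of tumoral to peritumoral SD, 0.107, by 0.150% of genes. This was noticed after the values had been seen and is given as a description. The closeness was not shared by the other lectin genes, whose tumoral SDs ran from 0.24 for Clec7a to 0.80 for Clec4n.

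The receptors that pair with the Fc receptor gamma chain differed in size and sign but not beyond their spread. Clec4n encodes Dectin-2, which binds fungal mannans. It had a lowest, median and highest value of 9.78, 10.62 and 11.59 in tumoral arrays, against 8.68, 10.38 and 11.12 in peritumoral arrays. Tumoral 1, 4 and 7 lay above every peritumoral array, and peritumoral 1, 4 and 7 lay below every tumoral array. The means were 10.66 ± 0.80 in tumoral and 10.14 ± 0.87 in peritumoral arrays (SD, n = 8 each). The Clec4n difference of 0.51 was the largest of the 7, with a 95% interval of -0.28 to 1.30 (limma, adjusted p = 0.614). It was 0.31 without peritumoral 4.

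Clec4d encodes MCL, a receptor for mycobacterial glycolipid that pairs with Mincle. It measured 9.34, 9.89 and 10.85 (lowest, median, highest) in tumoral arrays, against 8.48, 9.93 and 10.54 in peritumoral arrays. Again tumoral 1, 4 and 7 were the highest 3 of all arrays, and peritumoral 1 alone lay below the tumoral range. The difference was 0.31, with a 95% interval of -0.28 to 0.90 (limma, adjusted p = 0.688), and it was 0.13 without peritumoral 1. The tumoral median lay below the peritumoral median although the tumoral mean lay above the peritumoral mean.

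Clec4e encodes Mincle, which binds mycobacterial cord factor and a nuclear protein released by dying cells. It measured 10.30, 10.87 and 11.44 in tumoral arrays, against 9.43, 11.14 and 12.03 in peritumoral arrays. The peritumoral arrays held both the lowest value, in peritumoral 1, and the highest, in peritumoral 5. The difference was -0.10, with a 95% interval of -0.74 to 0.53 (limma, adjusted p = 0.926). It was 0.05 without peritumoral 5 and -0.32 without peritumoral 1, so a single array decided its sign. Peritumoral 5 also had the highest monocyte marker mean (0.47) and, behind peritumoral 4, the second highest neutrophil marker mean (1.02). The part of such cells in its Clec4e value was not tested.

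Clec5a encodes MDL-1, a receptor that pairs with DAP12. It measured 8.98, 9.81 and 10.62 in tumoral arrays, against 8.09, 9.52 and 10.43 in peritumoral arrays. The labels overlapped over most of that range, and only peritumoral 4 lay below every tumoral array. The difference was 0.34, with a 95% interval of -0.31 to 0.99 (limma, adjusted p = 0.695), and it was 0.13 without peritumoral 4.

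Clec7a encodes Dectin-1, the receptor for fungal beta-glucan, which carries its own activation motif. It measured 11.71, 12.04 and 12.29 in tumoral arrays, against 11.52, 11.93 and 12.16 in peritumoral arrays. The span within a label was under 0.65 for this gene, against 1.07 to 2.60 in either label for the 5 members other than Clec7a and Clec12a. The difference was 0.08, with a 95% interval of -0.16 to 0.31 (limma, adjusted p = 0.828).

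Olr1 encodes LOX-1, a scavenger receptor for oxidised low-density lipoprotein. It measured 9.45, 10.09 and 10.52 in tumoral arrays, against 9.29, 9.99 and 11.13 in peritumoral arrays. Peritumoral 2, 4 and 5 lay above every tumoral array. The difference was -0.09, with a 95% interval of -0.57 to 0.39 (limma, adjusted p = 0.912), and it was 0.05 without peritumoral 5.

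**Figure D2:**
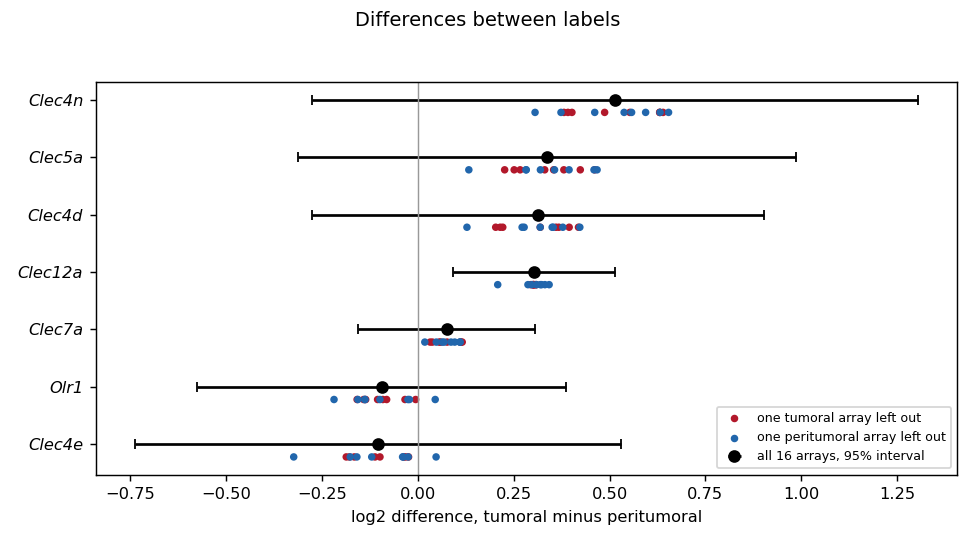
Log2 difference, tumoral minus peritumoral, for each gene, with its 95% interval from limma over all 16 arrays (black) and the differences with each single array left out (small points, coloured by the label of that array). The interval of Clec12a alone lies above 0, at 0.09 to 0.51, and the points of Clec4e and Olr1 fall on both sides of 0.

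In deposited order, Clec4n fell into 3 ranges that did not overlap, in step with the place of an array in each run of 3. Arrays in the first place (positions 1, 4, 7, 10, 13 and 16, which are tumoral 2, 5 and 8 and peritumoral 1, 4 and 7) measured 8.68 to 9.85. Arrays in the second place (tumoral 3 and 6 and peritumoral 2, 5 and 8) measured 10.31 to 10.85, and those in the third place (tumoral 1, 4 and 7 and peritumoral 3 and 6) 10.97 to 11.59. Such an order held for 0.933% of all genes. The run length of 3 was chosen after the values had been seen, no label says what the deposited order stands for, and no condition was inferred from it. These ranges are therefore given without a test.

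Clec5a was highest in the same third-place arrays, at 10.34 to 10.62, against 9.39 to 9.92 in the second place and 8.09 to 9.54 in the first. All third-place arrays lay above the other 11 for 2 of the 7 genes, Clec4n and Clec5a, and for 8.37% of all genes. Clec4e was lowest in the first place, at 9.43 to 10.58, against 10.83 to 12.03 in the second and 11.29 to 11.44 in the third. All first-place arrays lay below the other 10 for 2 of the 7 genes, Clec4e and Clec4n, and for 1.96% of all genes. Clec4d followed the same order with overlap, from 8.48 to 9.75 in the first place, 9.70 to 10.54 in the second and 10.05 to 10.85 in the third. The ranges of Clec7a, Olr1 and Clec12a overlapped across all places. For Clec12a the third place ran from 10.37 to 10.78 and the first from 9.82 to 10.83.

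**Figure D3:**
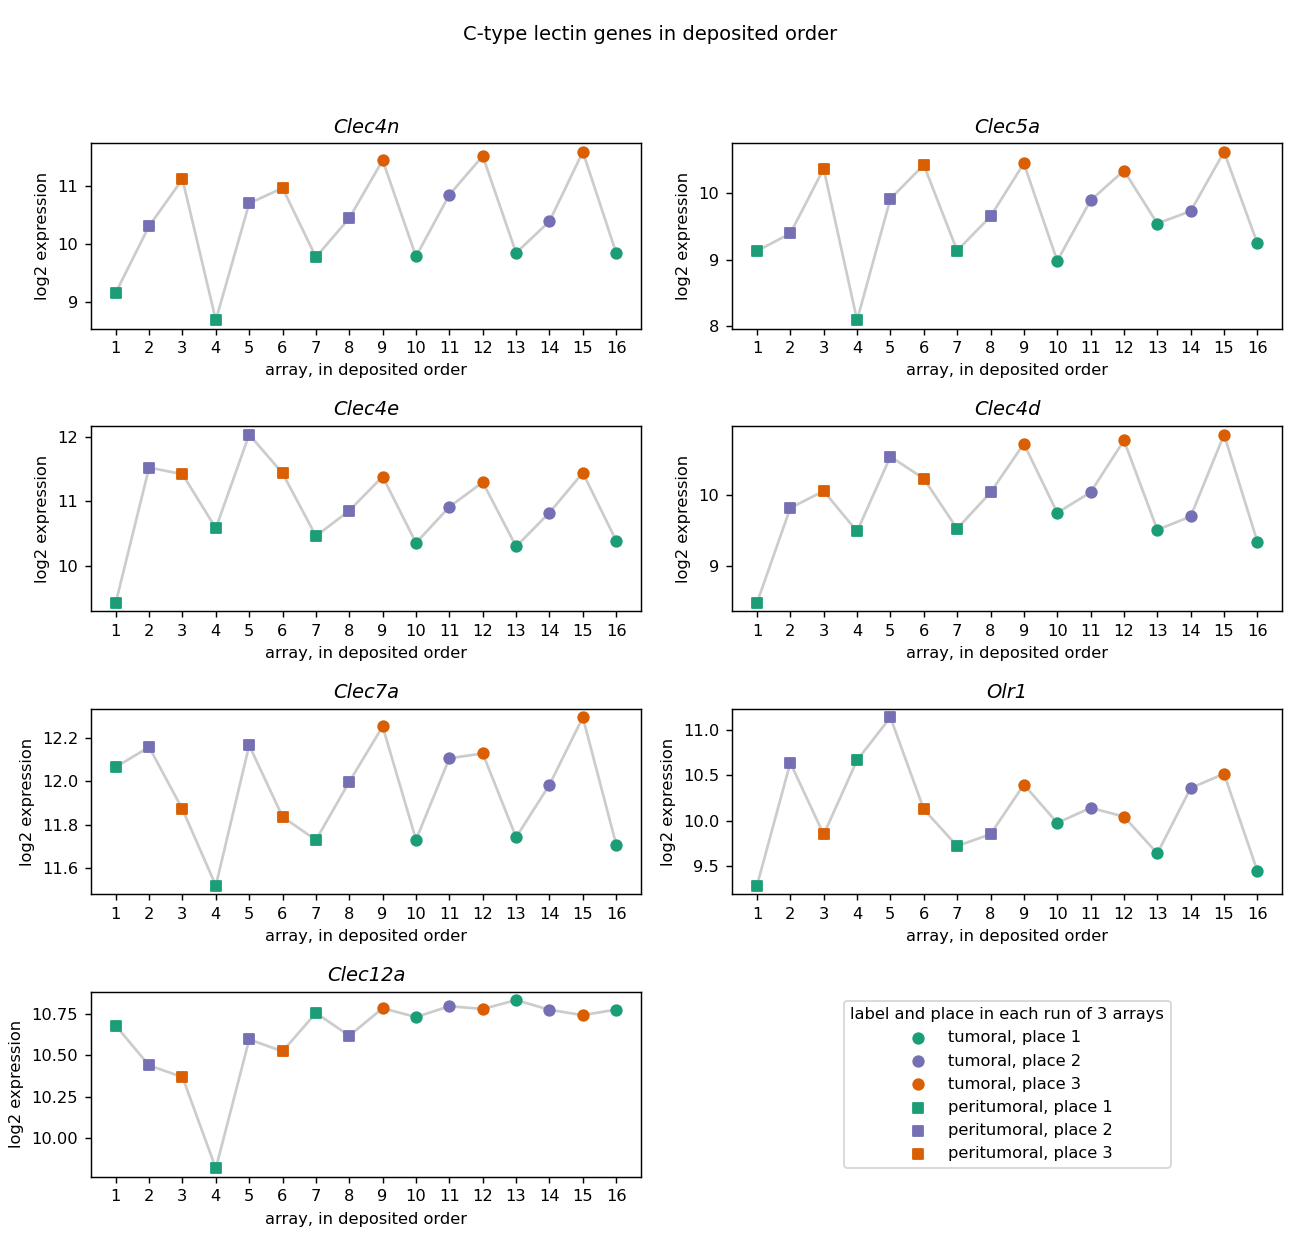
Log2 expression of each gene along the 16 arrays in the order of the deposited table, with circles for tumoral and squares for peritumoral arrays and colours for the place in each run of 3. Clec4n, Clec5a, Clec4d and Clec4e dip at the first place of most runs, and Clec12a stays within 10.73 to 10.83 from position 9 on.

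Read within a place, the labels can be set side by side for Clec4n. In the third place tumoral 1, 4 and 7 measured 11.45, 11.52 and 11.59, against 11.12 and 10.97 in peritumoral 3 and 6. In the first place tumoral 2, 5 and 8 measured 9.78, 9.85 and 9.84, against 9.16, 8.68 and 9.77 in peritumoral 1, 4 and 7. In the second place tumoral 3 and 6 measured 10.85 and 10.39, against 10.31, 10.70 and 10.45 in peritumoral 2, 5 and 8, which overlap. In the first place the lowest tumoral and the highest peritumoral value lay only 0.01 apart. The labels did not overlap within the first place for 1 of the 7 genes (Clec4n), against 8.56% of all genes. Within the second place they did not overlap for 1 (Clec12a), against 16.3% of all genes. Within the third they did not overlap for 4 (Clec4n, Clec4d, Clec7a and Clec12a), against 42.1%. Tumoral arrays were higher each time for these lectin genes, whereas the shares of all genes count either direction. With the place as a further term in limma, an alternative added after the data were seen, the difference was 0.43 for Clec4n (adjusted p = 0.103) and 0.31 for Clec12a (adjusted p = 0.129). Of all genes, 0% passed in that fit.

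Markers of several cell types differed by the same places. The mean over 11 macrophage markers was 0.21 to 0.54 in third-place arrays, against -0.17 to 0.16 in the second place and -0.73 to -0.08 in the first. Fcgr1 is the gene of the high-affinity IgG receptor CD64, used to mark macrophages and monocyte-derived cells. It ran from 10.006 to 10.72 in the third place, 9.30 to 10.013 in the second, which overlap, and 8.03 to 9.20 in the first. Mertk, of the same list, overlapped across all places. The mean over 10 conventional dendritic cell markers went the other way, at -0.75 to -0.29 in the third place, against -0.05 to 0.27 in the second and -0.08 to 0.48 in the first. Cd209a, a lectin gene of CD11b+ dendritic and monocyte-derived cells, measured 10.74 to 11.43 in the third place and 11.97 or more elsewhere. Itgax and H2-Ab1, of the same list as Cd209a, overlapped across all places. The CD11b gene Itgam, also a marker of the sort, did not. It measured 11.53 to 11.80 in the third place, above 11.08 to 11.50 in the second and 10.18 to 11.22 in the first. The monocyte marker mean was -0.38 to -0.09 in first-place arrays and -0.01 to 0.47 in all others. Markers of some cells outside the myeloid lineage differed as well. The lung epithelial mean was -0.80 to -0.65 in third-place arrays and -0.11 or more elsewhere, and the lymphocyte mean -0.71 to -0.46 and -0.22 or more. The neutrophil, alveolar macrophage, endothelial and fibroblast means overlapped across the places. The part of such cells in the lectin values was not tested.

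**Figure D4:**
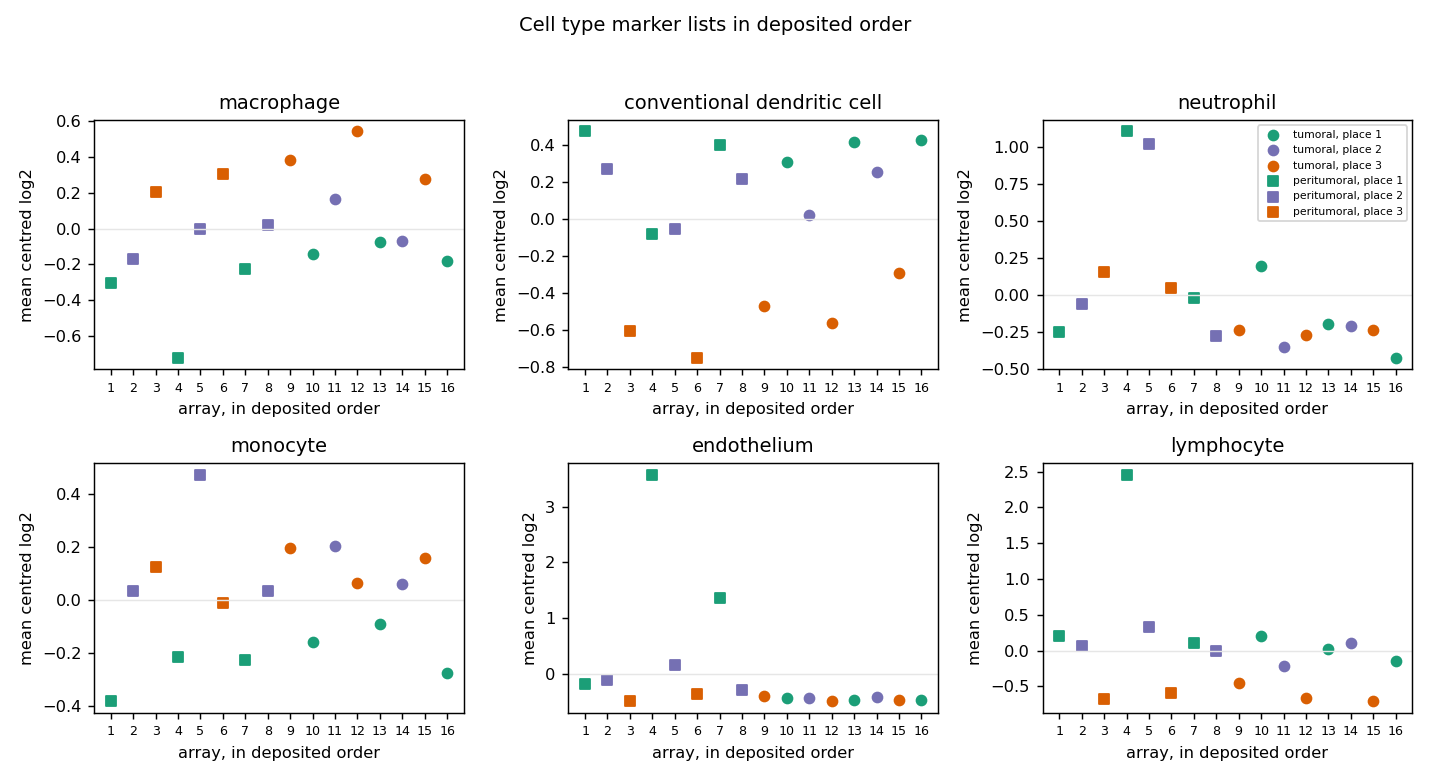
Mean over the markers of 6 cell types, each marker centred on its own mean over the 16 arrays, along the deposited order, with circles for tumoral and squares for peritumoral arrays. Third-place arrays are highest for macrophage markers (0.21 to 0.54) and lowest for conventional dendritic cell markers (-0.75 to -0.29), and peritumoral 4, at position 4, is highest for endothelial (3.58) and lymphocyte (2.46) markers.

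Between the labels the marker lists gave no call for any single gene (limma, 0 genes past the adjusted threshold in each list). Macrophage markers were higher in tumoral arrays for 9 of 11 genes, and the list mean ran from -0.18 to 0.54 in tumoral and from -0.73 to 0.30 in peritumoral arrays. The conventional dendritic cell mean ran from -0.56 to 0.43 in tumoral and from -0.75 to 0.48 in peritumoral arrays. Of 14 neutrophil markers 13 were lower in tumoral arrays, with a list mean of -0.43 to 0.20 in tumoral and -0.27 to 1.11 in peritumoral arrays. Monocyte markers were split, with 5 of 10 higher. Of the other lists, 2 of 9 alveolar macrophage markers were higher, and all 7 fibroblast, 8 lung epithelial and 6 lymphocyte markers were lower in tumoral arrays. Among the 2 most abundant markers of each list, differences ran from -2.02 for the fibroblast gene Dcn to 0.40 for the alveolar macrophage gene Fabp5. The calgranulin gene S100a8, a defining neutrophil marker, lay at 6.04 to 7.67 in tumoral and 6.30 to 8.56 in peritumoral arrays. All 8 endothelial markers were lower in tumoral arrays, with a list mean of -0.50 to -0.40 in tumoral and -0.50 to 3.58 in peritumoral arrays. Of all 19938 genes, 11627 were lower in tumoral arrays. Peritumoral 4 had the highest mean of the fibroblast (1.88), lung epithelial (2.18), lymphocyte (2.46), endothelial (3.58) and neutrophil (1.11) lists. Its part in the counts of lower markers was not tested.

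The genes whose profile over the 16 arrays was most like that of a lectin gene are given as a description, since arrays share RNA input, label and place in the deposited order. For Clec4e they were Thbs1 (thrombospondin-1, Pearson r = 0.956), Timp1 (0.947), Ninj1 (0.942), Gab1 (0.939) and Arg2 (0.938). For Clec4d they were the cystine transporter gene Slc7a11 (0.954), Ier3 (0.954) and Msrb1 (0.934). Clec4n was followed most closely by Fcgr1 (0.984), Esd (0.983) and Fam20c (0.981), and Clec5a by the actin-capping gene Capg (0.990), Mrps15 (0.978) and Ms4a6d (0.970). For Clec7a they were the chemokine gene Cxcl9 (0.928), Naaa (0.918) and Papss2 (0.911). For Olr1 they were the itaconate-producing enzyme gene Acod1 (0.934), Sgms2 (0.880) and Penk (0.850). For Clec12a they were Cd52 (0.954), Pld4 (0.945) and Unc93b1, the chaperone of endosomal Toll-like receptors (0.943). No gene named here was among the closest for more than 1 member. Only 3 genes were listed per member, or 5 for Clec4e, and the members themselves were left out. The listing therefore does not show that the members had distinct profiles.

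Correlations between the lectin genes over all 16 arrays are not given, because the values fall into separate ranges by place. The 6 first-place arrays were set apart after the values had been seen, and they hold arrays of both labels. Among them is peritumoral 4, the lowest of all 16 arrays for Clec4n, Clec5a and Clec12a. The part of the label, or of that array alone, in the correlations was not tested. Within these 6 arrays, 0 of 21 pairs passed an exact permutation test of Pearson's r after adjustment over the pairs, and 4 had an unadjusted p under 0.05. Clec5a and Clec12a had r = 0.957 and rho = 0.943 (exact p = 0.00972 and 0.0167, adjusted p = 0.0681 and 0.117), and r was 0.399 without the 2 arrays farthest from the Clec5a median. Clec4e and Clec7a had r = -0.952 and rho = -0.943 (exact p = 0.00972 and 0.0167, adjusted p = 0.0681 and 0.117), and r was -0.456 without the 2 farthest arrays. For both pairs r was thus much smaller without those arrays. Over all 16 arrays, where the place varies as well, the r of Clec4e and Clec7a was positive. The negative sign therefore describes these 6 arrays only and not the series. Clec4n and Clec12a had r = 0.889 and rho = 0.943 (exact p = 0.00417 and 0.0167, adjusted p = 0.0681 and 0.117), and Clec4n and Clec5a had r = 0.836 and rho = 0.829 (exact p = 0.0375 and 0.0583, adjusted p = 0.197 and 0.306). Without the 2 arrays farthest from the Clec4n median r was 0.790 for either pair, over 4 arrays. The arrays left out were peritumoral 1 and 4 for Clec4n and Clec4e, and peritumoral 4 and tumoral 5 for Clec5a.

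The signalling genes downstream of these receptors gave no call. Of 26 tested, 18 had the higher mean in tumoral arrays and 8 the lower, the median difference was 0.06, and 0 passed over all genes in limma. Unadjusted, 4 of the 26 had a p under 0.05, all higher in tumoral arrays, beside 11.5% of all genes (1116 higher and 1176 lower). Of these Blnk, an adaptor substrate of Syk, measured 10.19 ± 0.15 in tumoral and 9.80 ± 0.34 in peritumoral arrays (SD, n = 8 each), a difference of 0.39 (limma, adjusted p = 0.272). The guanine exchange factor genes Vav3 and Vav1 differed by 0.27 and 0.23, and the kinase gene Btk by 0.23. Peritumoral 4 had the lowest value of all peritumoral arrays for each of these 4 genes.

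The partner chains and the core of the pathway were close between the labels. Fcer1g, the Fc receptor gamma chain gene, measured 12.80 ± 0.11 in tumoral and 12.73 ± 0.15 in peritumoral arrays, a difference of 0.07. Tyrobp, which encodes DAP12, measured 12.37 ± 0.10 and 12.41 ± 0.12, a difference of -0.04. Syk differed by 0.20, Card9 by -0.04 and Ptpn6, the phosphatase gene SHP-1 recruited by inhibitory receptors, by -0.08. The limma adjusted p-values of these 5 genes lay between 0.529 and 0.939. By place, Fcer1g measured 12.84 to 12.94 in third-place arrays, 12.68 to 12.85 in the second, which overlap, and 12.41 to 12.77 in the first. Syk measured 10.003 to 10.572 in the third place, 10.64 to 10.87 in the second and 10.33 to 10.91 in the first. Its third-place range thus lay below the second and overlapped the first.

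Of 20 genes known as targets of this signalling, 13 had the higher mean in tumoral arrays and 7 the lower, the median difference was 0.11, and limma made 0 calls. Unadjusted, 4 of the 20 had a p under 0.05, all higher in tumoral arrays, again beside 11.5% of all genes. Egr2, a transcription factor gene, measured 11.21 ± 0.16 in tumoral and 10.85 ± 0.29 in peritumoral arrays (SD, n = 8 each), a difference of 0.36 (limma, adjusted p = 0.266). The inflammasome gene Nlrp3 differed by 0.37, the neutrophil chemokine gene Cxcl1 by 0.46 and Tnf by 0.23. Peritumoral 4 had the lowest value of all peritumoral arrays for Egr2 and Nlrp3, but not for Cxcl1 or Tnf. Many receptors other than lectins induce these genes.

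Among 28 tested genes of other C-type lectins, 18 had the higher mean in tumoral arrays and 10 the lower, the median difference was 0.11, and limma made 0 calls. The 4 with the smallest p were Klrk1, which encodes the receptor NKG2D (+0.43), Clec4a3, of the dendritic cell immunoreceptor family (+0.23), Clec2d (+0.37) and the mannose receptor gene Mrc1 (+0.20), with adjusted p-values of 0.351 to 0.370. Unadjusted, 5 of the 28 had a p under 0.05 and were higher and 1 was lower, beside the same 11.5% of all genes. The other 2 were Clec4b1 (+0.77, adjusted p = 0.405) and Mrc2 (-0.34, adjusted p = 0.431), named here after their values were seen. Clec4a3 measured 10.96 ± 0.11 in tumoral and 10.73 ± 0.24 in peritumoral arrays (SD, n = 8 each), and its lowest value, 10.19, was again in peritumoral 4.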

How the data were processed

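Per the labels' protocols, total RNA of sorted cells was converted to biotin-labelled cDNA after amplification (Ambion WT Expression Kit). The authors deposited a table of 28853 probe sets by 16 arrays, read here as log2 values; how they were background-corrected and normalized, and the log base, is not stated in those sources, and array medians ran from 6.75 to 6.95. Probe sets naming 1 gene numbered 21789, several 1621 and none 5443; the probe set with the highest mean was kept per gene, which left 19938 genes. Scanner files, detection calls and scan batches were not used here, and the number of arrays limits the precision.

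The comparison of labels used limma 3.58.1 under R 4.3.3, with lmFit, eBayes, 14 residual degrees of freedom and no filter on dim probe sets. Adjustment was over all genes at a threshold of 0.05, after a test on simulated data. Exact permutations used SciPy 1.17.1 and all 12870 assignments of the labels. Lists held 30 signalling, 20 target and 30 other lectin genes, of which 26, 20 and 28 were tested, and 9 cell types' markers. The members and lists were chosen with earlier results of these data known. Named genes were the members, the 4 smallest p of each function list, Fcer1g, Tyrobp, Syk, Card9, Ptpn6, the sorting markers, the genes most like each member (5 for Clec4e, 3 for each other) and 2 abundant markers per cell type; S100a8, Fcgr1 and other genes beyond this rule were chosen after their values were seen. The labels do not say whether equal replicate numbers share an animal. Deviations from the group means of same-numbered arrays correlated between -0.56 and 0.29, and over 0.1 in 3 of 8 pairs. Same-numbered arrays always stand at different places in the runs of 3, so these correlations cannot decide whether they are paired. Sequences and gene order are from RefSeq, GRCm38.p6; the array file gives no coordinates. Alternatives were a replicate block, other normalization, centring, a filter, variances, weights, probe sets and tests, and arrays left out.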

Additional observations from a re-analysis of the deposited data

Results flagged for a closer look

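Clec12a in peritumoral 4 measured 9.82, far below the other peritumoral arrays, which lay at 10.37 to 10.75. The gap to the nearest array, as a share of the whole peritumoral range, was above Dixon's critical value for 8 samples. Of the 14 sets of values tested (7 genes in each label) this was the only one past that value, and chance passes about 1 in 20. The same array had the highest endothelial marker mean (3.58) and lymphocyte marker mean (2.46) of all 16, and the part of such cells in this value was not tested.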

How the results depend on the processing

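None of the 7 lectin genes passed an adjusted p of 0.05 under any of the alternatives run, and Clec12a, Clec4n, Clec4d and Clec5a were higher in tumoral arrays in all 28 of them. The replicate block, the filter, the trended variances, the mean of probe sets and the permutation cannot change these differences, so their sign was fixed in advance there. With 1 array left out at a time the difference ran from 0.21 to 0.34 for Clec12a, 0.31 to 0.65 for Clec4n, 0.13 to 0.42 for Clec4d, 0.13 to 0.47 for Clec5a, 0.02 to 0.12 for Clec7a, -0.32 to 0.0479 for Clec4e and -0.22 to 0.0456 for Olr1, both above 0 only without peritumoral 5. Without peritumoral 4 and 5 Clec4e was at 0.00941 and Olr1 at 0.15, and without peritumoral 4 and 7 Clec7a was at -0.0224; the cause of these turns was not tested. The lowest adjusted p of Clec12a was 0.0680, without peritumoral 4 and 7. The number of genes called was 0 to 128 with 1 array left out, with 128 without peritumoral 7 and 20 without peritumoral 8, 88 without peritumoral 4 and 7, 522 without peritumoral 7 and 8, and 0 in the other alternatives; none of the 7 lectin genes was among them, and the cause was not tested. Of the 26 signalling, 20 target and 28 other lectin genes tested, 3 were called without peritumoral 7 and 8, beside the 522 of all 19938 genes. They were Clec2d, Blnk and Vav3. With the replicate number as a block 0 genes were called, and the Clec12a difference of 0.30 had an adjusted p of 0.415. Counts of list genes higher in tumoral arrays stayed within 16 to 24 for signalling, 12 to 16 for target and 16 to 22 for other lectin genes. Without detection calls, how far each value lies above background is unknown.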
